A study of Mus musculus with 2 samples.

Results

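The surface markers described here are the 8 genes behind the antibodies that sort myeloid-derived suppressor cells (MDSC) into subsets, chosen by name from the 32285 genes in the count tables: Itgam, Itgax, Adgre1, Cd14, Ly6c2, Ly6g, Cd84 and Cd244a. All 8 were detected. Bone marrow cells of female C57BL/6 mice aged 10 weeks were cultured in 50 ng/mL GM-CSF plus 50 ng/mL IL-6 over 4 days, with either 1.5 µM dabrafenib (DAB), a BRAF kinase inhibitor, or the same volume of its solvent DMSO. Each condition was 1 single-cell RNA library, and the number of mice behind it was not given in the sources used here. With 1 library per condition no test between conditions was possible, so intervals at 95% cover counting error only, and a difference cannot be told apart from a difference between cultures.

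MDSC are immature myeloid cells that hold back T cells, and in mice they are split by surface proteins into a granulocytic (PMN) and a monocytic branch. CD11b (Itgam) marks both branches, Ly6G marks the granulocytic branch, and high Ly6C without Ly6G marks the monocytic branch. CD84 has been used to tell MDSC from ordinary neutrophils and monocytes, CD244 and CD14 to tell MDSC within each branch, and F4/80 (Adgre1) and CD11c (Itgax) to set macrophages and dendritic cells apart. The data here are RNA molecules and not surface protein.

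Ly6c2 and Ly6g lie in the same cluster of Ly6 genes on chromosome 15, 43.3 kb apart. The sequences before their start sites are shown because this pair of markers was the most strongly co-detected over all cells in both libraries. The windows hold the 250 bases before the start site (RefSeq, GRCm38.p6), written 5′ to 3′ on the gene's strand, and capitals mark GAGGAAGT, a purine-rich motif of the kind bound by the myeloid factor PU.1. Ly6c1, the neighbor and close copy of Ly6c2, is given beside them. The windows are chr15:75111972-75112221 (minus strand) for Ly6c2, chr15:75155011-75155260 (plus strand) for Ly6g and chr15:75048838-75049087 (minus strand) for Ly6c1.
Ly6c2: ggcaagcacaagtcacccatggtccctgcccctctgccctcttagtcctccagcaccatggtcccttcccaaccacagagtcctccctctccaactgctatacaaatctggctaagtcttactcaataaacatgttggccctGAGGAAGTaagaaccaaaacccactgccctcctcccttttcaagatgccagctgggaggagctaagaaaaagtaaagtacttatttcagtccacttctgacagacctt
Ly6g: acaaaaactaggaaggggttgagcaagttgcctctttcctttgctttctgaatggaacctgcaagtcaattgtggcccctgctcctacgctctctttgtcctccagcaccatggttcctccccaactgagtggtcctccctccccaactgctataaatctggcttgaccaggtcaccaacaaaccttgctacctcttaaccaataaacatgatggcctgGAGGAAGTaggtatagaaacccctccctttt
Ly6c1: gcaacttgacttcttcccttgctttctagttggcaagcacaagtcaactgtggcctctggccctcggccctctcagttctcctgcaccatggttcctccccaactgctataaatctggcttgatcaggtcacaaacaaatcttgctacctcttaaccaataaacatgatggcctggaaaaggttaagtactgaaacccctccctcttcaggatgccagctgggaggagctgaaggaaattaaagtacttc

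The Ly6c2 and Ly6g windows aligned over 189 columns with 69.3% identical bases. Each held 1 match to the motif, 108 bases before the RefSeq start of Ly6c2 and 31 bases before that of Ly6g. Each of the Ly6 genes shown had 2 windows, and the one with the start site furthest upstream was taken. The Ly6g window ends at 75155260, inside the GENCODE M21 span of the gene, which begins at 75155240. The Ly6c1 window aligned with that of Ly6c2 over 228 columns at 73.2% and held no match. Of 32536 windows of the same length searched on both strands, 2.45% held the motif. So did 2 of the 6 markers with a window, since those of Itgam, Itgax, Cd84 and Cd244a held none. In the Ly6c2 and Ly6g windows the match follows nearly the same run of bases, so these are not 2 independent matches. The match is a description of letters and says nothing of binding.

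The DMSO library gave 9023 cells with 91539513 UMIs (unique RNA molecules) and a median of 7471 per cell, and the DAB library 10460 cells with 138790749 UMIs and a median of 9312. Levels are given as CPM, a gene's UMIs scaled by all UMIs of the cells concerned. Because the DAB cells were deeper, the share of cells with a UMI was taken after thinning every cell to 1500 UMIs. Cells with fewer, 436 of DMSO and 292 of DAB, had no thinned value. A level was called higher or lower in DAB where the log2 ratio reached 0.5 in either direction and its interval left out 0. The libraries shared 126 cell barcodes among the cells kept.

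The cells fell into 24 clusters, lettered A to X by size, made without the 8 markers. Lists of marker genes gave 13 of them a name, and the unnamed ones, described by their leading genes, held 48.3% of DMSO and 47.2% of DAB cells. Named myeloid classes were immature monocyte-like (12.8% of DMSO and 9.70% of DAB cells), intermediate granulocyte-like (8.43% and 2.80%), mature PMN-like (10.8% and 13%), chemokine-high granulocyte-like (6.33% and 15.6%) and mature monocyte-like cells (5.66% and 5.33%). The last class was named from MHC class II genes. Its leading genes also included Ccl17 and Plet1, so it may hold dendritic cells, which was not tested. B cell-like cells, which lack most of the markers, made up 1.61% of DMSO and 1.86% of DAB cells and were used to read free RNA.

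Over all cells 1 of the 8 markers was called higher in DAB (Ly6c2) and 2 lower (Itgax and Cd84). Among all 16392 genes measured, 13.9% were called higher and 16.3% lower, and with 8 markers these counts are too small to be set apart from those shares. The median log2 ratio was -0.11 over the 8 markers and -0.02 over all genes.

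**Figure D1:**
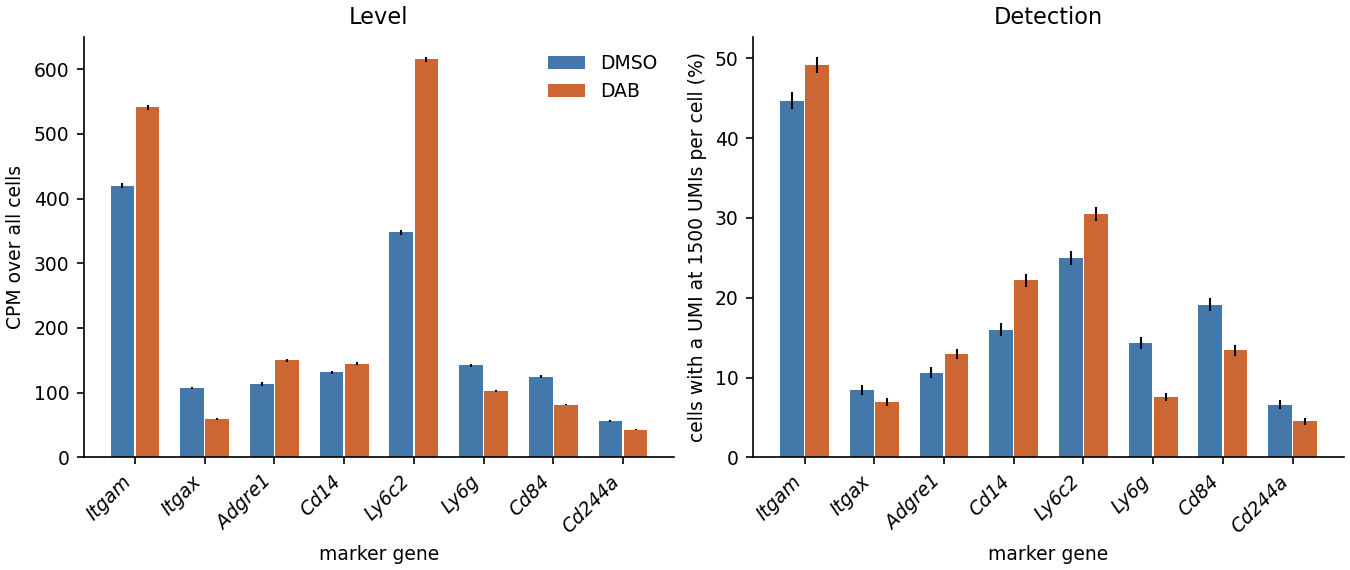
Level (CPM over all cells, left) and detection (percent of cells with a UMI at 1500 UMIs per cell, right) of the 8 markers in the DMSO and DAB libraries, 1 library each, where bars give the value and lines the 95% counting interval. Ly6c2 went from 348 to 615 CPM while Itgax, Ly6g, Cd84 and Cd244a had lower bars in DAB in both panels.

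Itgam (ENSMUSG00000030786, chr7:128062640-128118491, GRCm38) encodes CD11b, the alpha chain of the integrin Mac-1 that myeloid cells use for adhesion and phagocytosis. Its level was 420 CPM in DMSO (416 to 424) and 541 CPM in DAB (537 to 545), a log2 ratio of 0.37 (0.35 to 0.38) that stayed under the threshold. After thinning, 44.7% of DMSO and 49.2% of DAB cells held an Itgam UMI, and at full depth 81.6% and 84.0% did, as the myeloid label of the cultures calls for. B cell-like cells held one in 3.03% and 1.11% of thinned cells.

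Itgam RNA was present across the myeloid clusters. Its level lay between 240 and 789 CPM in 21 of the 24 DMSO clusters, and was 157 CPM in the basophil or mast cell-like cluster X, 39.5 CPM in B cell-like cells and 34.7 CPM in activated dendritic cell-like cells. The highest level was in cluster M, led by Gm26917 and Gria3, at 789 CPM in DMSO (739 to 843) and 1287.2 CPM in DAB (1234.1 to 1342.0). Per cell M was not high, with 2.33% of Itgam UMIs in 3.25% of DMSO cells and 2.94% in 3.19% of DAB cells. Among the 22 clusters that held 100 or more cells in both libraries, 3 had a higher Itgam level in DAB and none a lower one, with a median log2 ratio of 0.32. For scale, within these clusters a median of 14.1% of genes were called higher (range 5.35% to 27.0%) and 12.1% lower (7.08% to 20.4%).

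Itgax (ENSMUSG00000030789, chr7:128129547-128150657), 11.1 kb from Itgam, encodes CD11c, the integrin chain typical of dendritic cells and some macrophages. Its level was 107 CPM in DMSO (105 to 109) and 59.4 CPM in DAB (58.1 to 60.7), a log2 ratio of -0.85 (-0.89 to -0.81). Thinned detection was 8.41% in DMSO and 6.95% in DAB, but at full depth 26.9% of DMSO and 28.3% of DAB cells held a UMI, so no order is read from the unthinned share. When every cell counted equally, as a mean of CPM over cells, the log2 ratio was -0.38, under the threshold.

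Monocyte-like, macrophage-like, activated dendritic cell-like, some granulocyte and some unnamed clusters had a lower Itgax level in DAB. In mature monocyte-like cells it was 204 CPM in DMSO and 77.4 CPM in DAB (log2 ratio -1.40, -1.50 to -1.30), in macrophage-like cells, led by Pf4 and C1qb, 283 and 86.8 CPM (-1.70, -1.98 to -1.44), and in immature monocyte-like cells 118 and 76.7 CPM (-0.62, -0.71 to -0.52). Chemokine-high granulocyte-like cells fell from 75.6 to 41.2 CPM (-0.88, -1.09 to -0.67) and activated dendritic cell-like cells from 123 to 48.1 CPM (-1.35, -1.70 to -1.02). Of the chemokine-high clusters, E fell from 77.2 to 35.1 CPM. Cluster J had 69.6 CPM (52.4 to 90.5) in DMSO and 64.3 CPM (54.8 to 74.9) in DAB, with intervals that overlapped. The highest Itgax level in both libraries was in unnamed cluster I, led by Prg2, Cd200r3 and Cpa3. It was 335 CPM there in DMSO and 147 CPM in DAB, where the interval overlapped that of cluster P (142 CPM). In P, led by Ccl4 and Spp1, the DMSO level was 273 CPM. Cluster I held 22.2% of Itgax UMIs in DMSO and 24.3% in DAB. Mature PMN-like cells went the other way, from 30.6 to 46.3 CPM (0.60, 0.26 to 0.94). In all, 8 of 22 clusters were lower and 3 higher. Intermediate granulocyte-like cells were at the bottom of the order, with 5 UMIs in each library (0.863 and 1.3 CPM).

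Adgre1 (ENSMUSG00000004730, chr17:57358691-57483527) encodes F4/80, an adhesion receptor of macrophages. Its level was 113 CPM in DMSO (111 to 116) and 150 CPM in DAB (148 to 152), a log2 ratio of 0.41 (0.37 to 0.44), under the threshold. Thinned detection was 10.6% and 12.9%, and 33.4% and 38.1% at full depth. B cell-like cells held an Adgre1 UMI in 8.33% (4.23% to 14.4%) of DMSO and 6.11% (3.09% to 10.7%) of DAB cells. Their median depths were 3958 and 4983 UMIs. Intermediate granulocyte-like cells held one in 1.21% (0.555% to 2.29%) and 5.82% (3.43% to 9.16%). The intervals of these classes did not overlap in DMSO but did in DAB. The part of free RNA in Adgre1 detection was not tested.

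The clusters moved in opposite directions, with 8 of 22 higher and 5 lower in DAB. Mature monocyte-like cells had 265 CPM in DMSO and 137 CPM in DAB (log2 ratio -0.96, -1.04 to -0.88). Immature monocyte-like cells had 82.5 and 142 CPM (0.78, 0.69 to 0.87). The largest log2 ratio of the 22 clusters, 2.19, was in intermediate granulocyte-like cells. Their level was low, at 9.49 CPM in DMSO (7.15 to 12.4) and 43.3 CPM in DAB (37.0 to 50.3). The highest DAB level was in unnamed cluster I, led by Prg2, Cd200r3 and Cpa3, genes known from eosinophils, basophils and mast cells. There Adgre1 went from 284 to 490 CPM (0.79, 0.71 to 0.86), and the cluster held 17.7% of all Adgre1 UMIs in DMSO and 31.9% in DAB.

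Cd14 (ENSMUSG00000051439, chr18:36725067-36726798) encodes the co-receptor that hands lipopolysaccharide to TLR4. Its level was 132 CPM in DMSO (129 to 134) and 145 CPM in DAB (143 to 147), a log2 ratio of 0.14 (0.11 to 0.17). Thinned detection was 16% in DMSO and 22.2% in DAB, and 40.9% and 48.5% at full depth. B cell-like cells held a Cd14 UMI in 1.52% and 1.11% of thinned cells. As a mean over cells the log2 ratio was 0.98, and with cluster shares set equal in both libraries it was -0.09, so the overall Cd14 value depended on how cells were weighted.

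Cd14 rose in mature PMN-like cells and fell in the classes named monocyte-like. In mature PMN-like cells, whose median depth was 3005 UMIs in DMSO and 3159 in DAB, it was 218 CPM in DMSO (203 to 234) and 816 CPM in DAB (792 to 842), a log2 ratio of 1.90 (1.79 to 2.02). Their share with a Cd14 UMI was 19.6% and 50.3% after thinning. Cluster C alone, the largest of the class, had 190 and 815 CPM. Immature monocyte-like cells fell from 82.8 to 44.2 CPM (-0.91, -1.03 to -0.79) and mature monocyte-like cells from 31.1 to 14.4 CPM (-1.10, -1.35 to -0.86). Chemokine-high granulocyte-like cells stayed within the threshold as a class, at 438 and 389 CPM, but their clusters differed, since E fell from 467 to 313 CPM (-0.58) and J rose from 326 to 681 CPM (1.06). Over all clusters 5 of 22 were higher and 8 lower.

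Ly6c2 (ENSMUSG00000022584, chr15:75108158-75111970) encodes the GPI-anchored Ly6C antigen of monocytes and immature granulocytes. It was the marker with the largest rise in CPM over all cells. The level went from 348 CPM in DMSO (344 to 352) to 615 CPM in DAB (611 to 619), a log2 ratio of 0.82 (0.80 to 0.84). Thinned detection was 25.0% in DMSO and 30.5% in DAB, and 43.8% and 50.1% at full depth. By thinned detection Cd14 rose more, by 6.22 percentage points against 5.48 for Ly6c2. Cells with a UMI held a median of 4 Ly6c2 UMIs in DMSO and 7 in DAB.

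Of the 22 clusters 16 were higher and none lower, with log2 ratios from -0.27 (cluster J) to 3.15 (cluster I). The mature PMN-like cluster T, left out of that count with 78 DMSO cells, fell from 222 to 90.7 CPM. The order of levels in DMSO was led by intermediate granulocyte-like cells at 1295.6 CPM (1266.4 to 1325.2), in which it rose to 2747.2 CPM (2695.2 to 2800.0) in DAB with 92.1% of thinned cells positive. Granulocyte progenitor-like cells, led by Elane and Mpo, were at 1032.3 CPM in DMSO and 1014.5 CPM in DAB, a log2 ratio of -0.03 (-0.11 to 0.06). In the DMSO library their interval (988 to 1078.4) overlapped that of cluster Q. Immature monocyte-like cells had 226 and 285 CPM (0.34) and mature monocyte-like cells 17.4 and 20.7 CPM (0.25, -0.02 to 0.52). In DAB the largest share of Ly6c2 UMIs, 19.5%, lay in cluster L, led by the stefin genes Cstdc5 and Stfa1.

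B cell-like cells, which should hold little Ly6c2, also had more in DAB. In B cell-like cells it was 23.2 CPM in DMSO and 93.2 CPM in DAB, and S100a8, an abundant granulocyte RNA, was 256 and 1612.1 CPM in the same cells. Their thinned share with a Ly6c2 UMI was 0 of 132 cells in DMSO, with an interval that reached 2.76%, and 1.11% in DAB. Activated dendritic cell-like cells had 1.90 CPM (0.619 to 4.45) in DMSO and 5.76 CPM (2.87 to 10.3) in DAB, with intervals that overlapped. Basophil or mast cell-like cells had 7.74 and 111 CPM. The part of free RNA in the Ly6c2 ratio was not tested. Ly6c1 gave 24 UMIs in DMSO and 67 in DAB, against 31831 and 85340 of Ly6c2. Their longest coding transcripts were 97.6% identical, and 18.3% of the stretches of 90 bases in Ly6c2 also occurred exactly in Ly6c1, so reads from those stretches cannot be given to either gene. Ly6g shared 0 of the 733 stretches.

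Ly6g (ENSMUSG00000022582, chr15:75155240-75159126) encodes the antigen that defines granulocytic MDSC and neutrophils. Its level was 142 CPM in DMSO (140 to 144) and 103 CPM in DAB (101 to 104), a log2 ratio of -0.47 (-0.50 to -0.43), just under the threshold. Detection differed more, with 14.3% in DMSO (13.6% to 15.1%) against 7.58% in DAB (7.08% to 8.11%) after thinning, a difference of -6.73 percentage points (-7.64 to -5.82), and 21.8% and 16% at full depth. B cell-like cells had no Ly6g UMI after thinning in 132 DMSO and 180 DAB cells, with intervals that reached 2.76% and 2.03%.

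Very few cells held much of the Ly6g RNA in the DAB library. The highest DMSO cell had 55 Ly6g UMIs, whereas 8 DAB cells had 110 to 726 and together 2103 of 14237, or 14.8% of the total. Of these, 2 lay in cluster I and 6 in cluster R, led by Retnla and Ly6g. Of the eosinophil list, Siglecf was found in 5 of the 8 cells, Ccr3 in 4, Prg2 in 3, Epx in 1 and Ear6 in 0. Of the granulocyte lists, Cxcr2, Cd9, Msrb1 and Anxa1 were found in 8 and Lcn2, Ifitm6, Trem1, Il1rn and G0s2 in 7. Ltf, Ngp and Chil3 were found in 3 and Il1b in 1, and Camp and Csf3r were the only ones of those lists in 0. Levels in the granulocyte lists went both ways. Ngp had 13.4 CPM against 875 CPM in the other DAB cells, and Chil3 35.9 against 1491.9 CPM. Lcn2 had 4539.9 against 1566.9 CPM and Mmp9 2173.6 against 342 CPM. Of the eosinophil list, Prg2 had 5709.5 against 69.1 CPM, Epx 242 against 3.44, Siglecf 40.3 against 8.14 and Ccr3 35.9 against 1.27 CPM. Ear6 had 0 against 1.27 CPM, a level too low to read in 8 cells. Without cells of 100 or more Ly6g UMIs, a limit chosen after the values were seen, the log2 ratio over all cells was -0.70 (-0.73 to -0.66), past the threshold, and without clusters I and R it was -0.82 (-0.86 to -0.78). As a mean over cells it was -0.93.

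Ly6g RNA was concentrated in a few clusters. In DMSO it was highest in cluster Q (1182.3 CPM), led by Retnlg, then intermediate granulocyte-like cells (846 CPM, 823 to 870) and cluster B (770 CPM), led by S100a9 and S100a8. In DAB cluster Q had 844 CPM (-0.49, -0.58 to -0.39, under the threshold), while intermediate granulocyte-like cells fell to 583 CPM (-0.54, -0.61 to -0.46) and cluster B to 293 CPM (-1.39, -1.47 to -1.31). Mature PMN-like cells, defined by Csf3r, Mmp9 and other late neutrophil genes, held little Ly6g, at 20.1 CPM in DMSO and 13.4 CPM in DAB. In all, 7 of 22 clusters were lower and 5 higher, and the higher ones were A, I, N, P and R. In A, N and P the DAB levels were low, at 4.02, 8.24 and 8.64 CPM, beside B cell-like levels of 4.09 CPM (0.843 to 11.9) in DMSO and 1.73 CPM (0.209 to 6.23) in DAB, and in N the DMSO level rested on 2 UMIs. The part of free RNA in these 3 calls was not tested. In cluster I the log2 ratio was 4.01 (3.58 to 4.47) with all cells and 2.62 (2.18 to 3.10) without its 2 highest cells, and in cluster R 0.98 (0.84 to 1.13) and 0.10 (-0.06 to 0.26) without its 6.

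Intermediate granulocyte-like cells, which held 37.7% of all Ly6g UMIs in DMSO and 15.8% in DAB, went from 8.43% to 2.80% of cells. With the shares of all clusters set equal in both libraries, the log2 ratio of Ly6g was -0.27. This value included the 8 DAB cells of 100 or more Ly6g UMIs and was not computed without them. Those cells brought the DAB level of cluster I from 41.8 to 109 CPM and that of cluster R from 342 to 630 CPM. A smaller share of intermediate granulocyte-like cells and a lower Ly6g level within them were both seen in the DAB library.

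**Figure D2:**
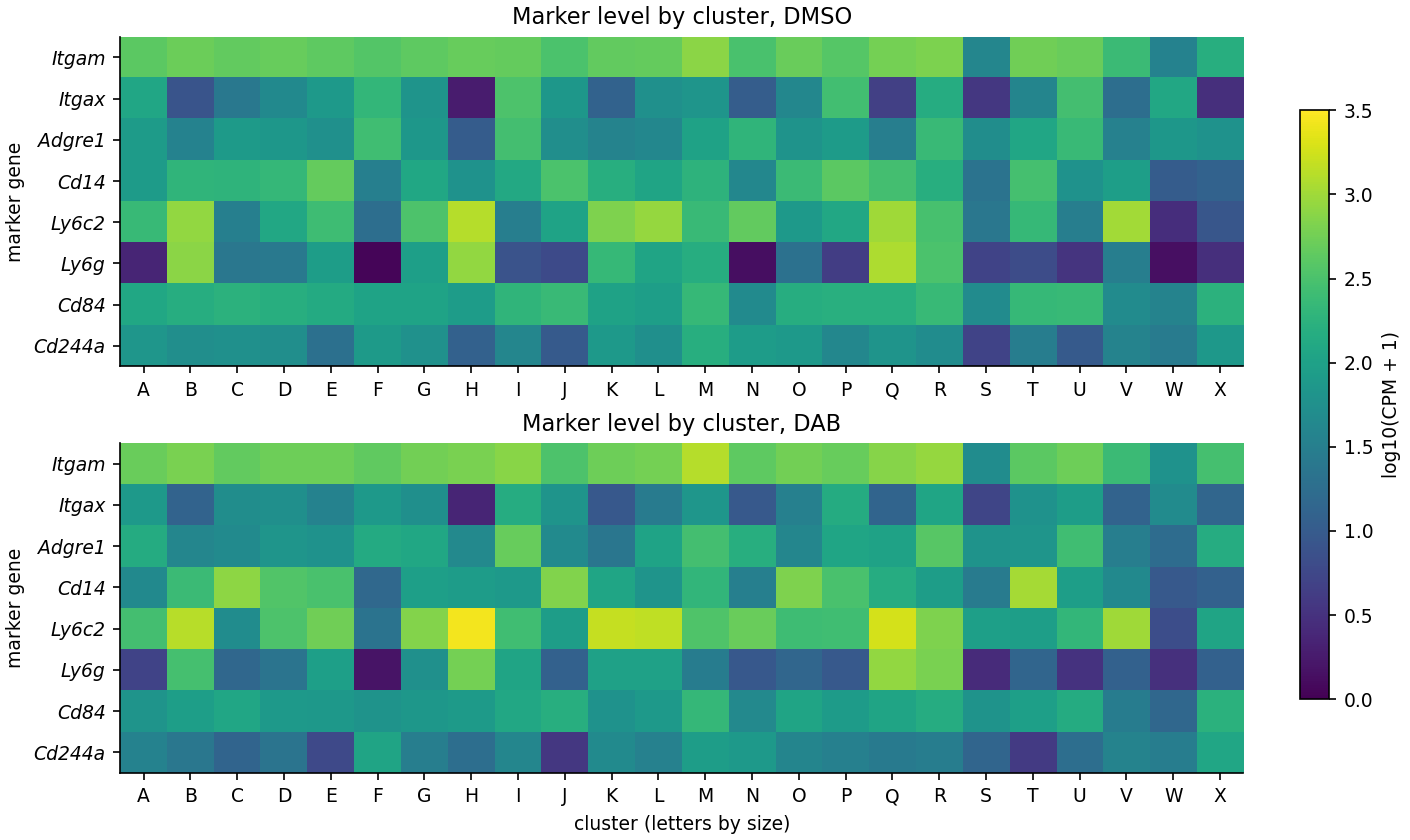
Level of each marker, as log10(CPM + 1) in color, in the 24 clusters (A to X by size, columns) of the DMSO (top) and DAB (bottom) libraries. Itgam was bright in nearly all columns, whereas Ly6g was bright in B, H, Q and R and at most 2.09 CPM in F and W, and Ly6c2 was brightest in H in both libraries (1295.6 and 2747.2 CPM).

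Cd84 (ENSMUSG00000038147, chr1:171839697-171890718) encodes a SLAM family receptor that binds itself on neighboring cells. Its level was 124 CPM in DMSO (122 to 127) and 81.7 CPM in DAB (80.2 to 83.2), a log2 ratio of -0.61 (-0.65 to -0.57). Thinned detection was 19.1% in DMSO (18.3% to 20%) and 13.4% in DAB (12.7% to 14.1%), and 55.8% and 51.0% at full depth. B cell-like cells held a Cd84 UMI in 5.30% and 8.33% of thinned cells, but B cells are known to express CD84 and so give no measure of free RNA for it.

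Cd84 was lower in most clusters. It was called lower in 16 of 22 clusters and higher in none, with a median log2 ratio of -0.63. It fell in mature PMN-like cells from 172 to 108 CPM (-0.67, -0.84 to -0.50), in chemokine-high granulocyte-like cells from 158 to 90.3 CPM (-0.81, -0.95 to -0.66), in immature monocyte-like cells from 119 to 63.2 CPM (-0.91, -1.01 to -0.81) and in mature monocyte-like cells from 107 to 62.6 CPM (-0.77, -0.90 to -0.65). Intermediate granulocyte-like cells were the exception among the 5 classes holding 200 or more cells in both libraries, at 84.7 and 79.3 CPM (-0.10, -0.31 to 0.11). Its DMSO levels ran from 35.4 CPM in activated dendritic cell-like cells to 238 CPM in cluster J.

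Cd244a (ENSMUSG00000004709, chr1:171559193-171609746), 230.0 kb from Cd84, encodes 2B4, the SLAM family receptor for CD48. Its level was 55.6 CPM in DMSO (54.0 to 57.1) and 43.1 CPM in DAB (42.0 to 44.2), a log2 ratio of -0.37 (-0.42 to -0.31), and -0.71 as a mean over cells. Thinned detection was 6.59% and 4.5%, and 26.5% and 22.2% at full depth. B cell-like cells held a UMI in 0.758% and 2.22% of thinned cells.

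Cd244a went with the granulocyte and monocyte classes in different ways. It fell in mature PMN-like cells from 59.8 to 19.4 CPM (-1.62, -1.98 to -1.27), in chemokine-high granulocyte-like cells from 16.4 to 4.40 CPM (-1.90, -2.45 to -1.35) and in immature monocyte-like cells from 67.0 to 34.2 CPM (-0.97, -1.11 to -0.83). Among the 5 classes holding 200 or more cells in both libraries, it was called higher only in intermediate granulocyte-like cells. There it rose from 11.2 to 17.6 CPM (0.65, 0.14 to 1.16), on 65 and 68 UMIs. In the smaller macrophage-like class it was 8.71 CPM in DMSO (4.88 to 14.4) and 17.4 CPM in DAB (11.8 to 24.6). In the basophil or mast cell-like class, outside the 22 clusters with 75 DMSO cells, it was also called higher, at 71.6 and 116 CPM (0.70, 0.15 to 1.27). Mature monocyte-like cells had 79.2 CPM in DMSO and 111 CPM in DAB, a log2 ratio of 0.48 (0.36 to 0.60), just under the threshold. They held 15.7% of Cd244a UMIs in DMSO and 30.5% in DAB. Over the clusters 12 of 22 were lower and 2 higher, the intermediate granulocyte-like and the macrophage-like one.

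**Figure D3:**
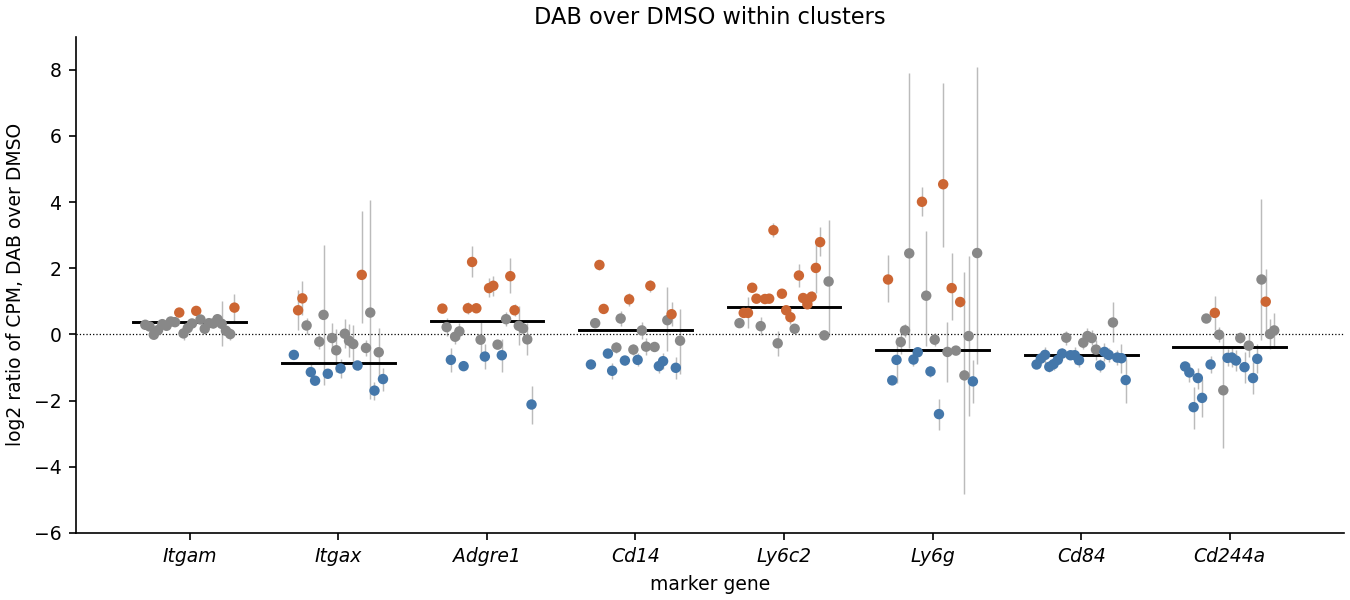
Log2 ratio of CPM, DAB over DMSO, of each marker in the 22 clusters holding 100 or more cells in both libraries (points in cluster order, orange called higher, blue called lower, gray neither), with 95% counting intervals as gray lines and the value over all cells as a black bar. Cd84 points gather around -0.63 and Ly6c2 points lie above 0 in most clusters, whereas Ly6g points run from -2.41 (M) to 4.54 (N, on 2 DMSO UMIs).

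Co-detection was read for the 28 pairs of markers in thinned cells, as the share of cells with a UMI of both genes divided by the product of the single shares, which is 1 when the genes fall on cells independently. The median ratio was 1.04 in DMSO and 1.07 in DAB. The interval lay above 1 for 8 pairs in DMSO and 10 in DAB, and below 1 for 6 and 9. These intervals carry the counting error of the joint share only, with the product taken as fixed. When the product was formed inside each cluster the medians were 1.03 and 1.04, with ranges of 0.406 to 1.28 and 0.599 to 1.51. At full depth the median ratio was 1.12 in each library, with intervals above 1 for 22 pairs in DMSO and 18 in DAB. Deeper cells hold more UMIs of any gene, which lifts full-depth ratios even for independent genes. A full-depth ratio above 1 is therefore not by itself a sign of pairing.

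Ly6c2 and Ly6g were the most strongly co-detected pair over all cells. Both were found in 762 of 8587 DMSO cells (8.87%, 8.28% to 9.50%), a ratio of 2.48 (2.32 to 2.66), and in 615 of 10168 DAB cells (6.05%, 5.59% to 6.53%), a ratio of 2.62 (2.42 to 2.83). Within clusters the ratios were 1.19 and 1.39, and the pair was no longer first. Ly6g with Cd14 (1.28) and Itgax with Cd84 (1.26) were higher in DMSO, and Ly6g with Cd244a (1.51) in DAB. Of cells with Ly6g, 62.0% in DMSO and 79.8% in DAB also held Ly6c2, and of cells with Ly6c2, 35.5% and 19.9% also held Ly6g. At full depth the double-positive share was 17.9% in DMSO and 14.1% in DAB, and with at least 2 UMIs of each gene it was 12.2% and 9.75%.

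The single-positive quadrants differed in opposite directions. Cells with Ly6c2 only, the monocytic pattern at the protein level, went from 16.1% in DMSO (15.3% to 16.9%) up to 24.4% in DAB (23.6% to 25.3%). Cells with Ly6g only went from 5.44% in DMSO (4.97% to 5.94%) down to 1.53% in DAB (1.3% to 1.79%). Cells with neither were 69.6% and 68.0%. A cell without a UMI of a gene after thinning may still express it, so these are not gates on protein.

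The gate used in flow cytometry, CD11b-positive and MHC class II-negative, was imitated by taking cells with an Itgam UMI and no H2-Aa UMI after thinning, 3498 in DMSO and 4658 in DAB. Among them the double-positive share was 11.2% in DMSO (10.2% to 12.3%) and 8.57% in DAB (7.78% to 9.41%), Ly6c2 alone 17.0% and 28.3%, and Ly6g alone 7.03% and 1.74%. The order between the libraries was that of all cells in each of these quadrants.

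**Figure D4:**
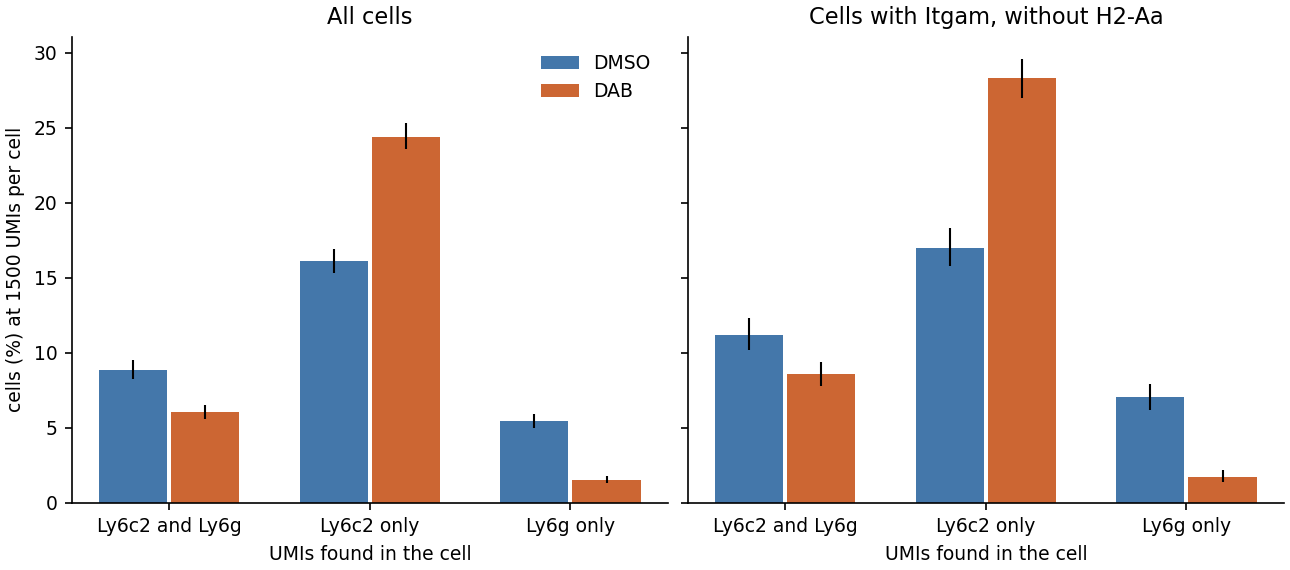
Percent of cells, thinned to 1500 UMIs, with UMIs of both Ly6c2 and Ly6g, of Ly6c2 only or of Ly6g only, in all cells (left) and in cells with an Itgam and no H2-Aa UMI (right), with 95% counting intervals as lines. Ly6c2-only cells were more frequent in DAB (24.4% against 16.1% of all cells), and Ly6g-only cells less (1.53% against 5.44%).

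Each quadrant drew on several clusters. Of double-positive cells in DMSO, 39.4% were intermediate granulocyte-like and 31.9% were in unnamed cluster B. In DAB 22.8% were in B, 20.3% in unnamed cluster Q, 18.5% were intermediate granulocyte-like and 9.43% were in the chemokine-high cluster E. Ly6g was itself among the leading genes of B and Q. Of Ly6c2-only cells, immature monocyte-like cells made up 14.4% in DMSO and 8.50% in DAB. Intermediate granulocyte-like cells made up 16.3% and 6.24% and cluster B 12.5% in each library. Cluster L went from 5.93% of the quadrant (82 cells) to 12.2% (304 cells) and the chemokine-high cluster E from 3.98% (55 cells) to 11.2% (278 cells). In immature monocyte-like cells 0 of 1117 DMSO cells and 1 of 987 DAB cells held both genes.

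Of the remaining markers, Itgax and Adgre1 were rarer in double-positive than in double-negative cells of both libraries. Itgax was found in 0.131% of double-positive and 11.0% of double-negative DMSO cells, and in 1.95% and 8.68% of those in DAB. Adgre1 was found in 2.36% of double-positive and 13.2% of double-negative DMSO cells, and in 9.27% and 14.0% in DAB. Cd84 was near equal, in 20.6% of double-positive and 19.7% of double-negative DMSO cells, and in 13.8% and 13.9% in DAB. Cd244a was found in 5.77% and 6.68% in DMSO, and in 5.53% and 4.60% in DAB, with intervals that overlapped. After thinning Cd14 changed order, with 20.7% of double-positive and 15.4% of double-negative cells in DMSO, but 14.8% and 25.2% in DAB. These shares were not computed at full depth. The full-depth co-detection ratios of Cd14 with Ly6g were 1.09 in DMSO and 1.06 in DAB. The change of order is therefore not read as firm.

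Itgax was the marker that Ly6g and Ly6c2 most avoided. Itgax and Ly6g were found together in 10 DMSO cells, a ratio of 0.0968 (0.0464 to 0.178), and in 24 DAB cells, a ratio of 0.448 (0.287 to 0.666). Itgax and Ly6c2 had ratios of 0.316 (0.240 to 0.409) and 0.441 (0.357 to 0.539). Adgre1 and Ly6g went from 0.268 (0.187 to 0.372) in DMSO to 0.834 (0.665 to 1.03) in DAB, and Adgre1 and Ly6c2 from 0.465 (0.381 to 0.561) to 0.805 (0.721 to 0.896). In these 3 pairs with Ly6g or Adgre1 the intervals of the libraries did not overlap, while those of Itgax with Ly6c2 did. Within clusters the same pairs were nearer to 1 in both libraries, with Adgre1 and Ly6g at 0.626 and 1.01. At full depth Itgax with Ly6g was at 0.168 and 0.546 and Adgre1 with Ly6g at 0.397 and 0.897, while Itgax with Ly6c2 was at 0.790 and 0.932 and Adgre1 with Ly6c2 at 0.856 in DMSO and above 1, at 1.11 (1.07 to 1.15), in DAB.

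**Figure D5:**
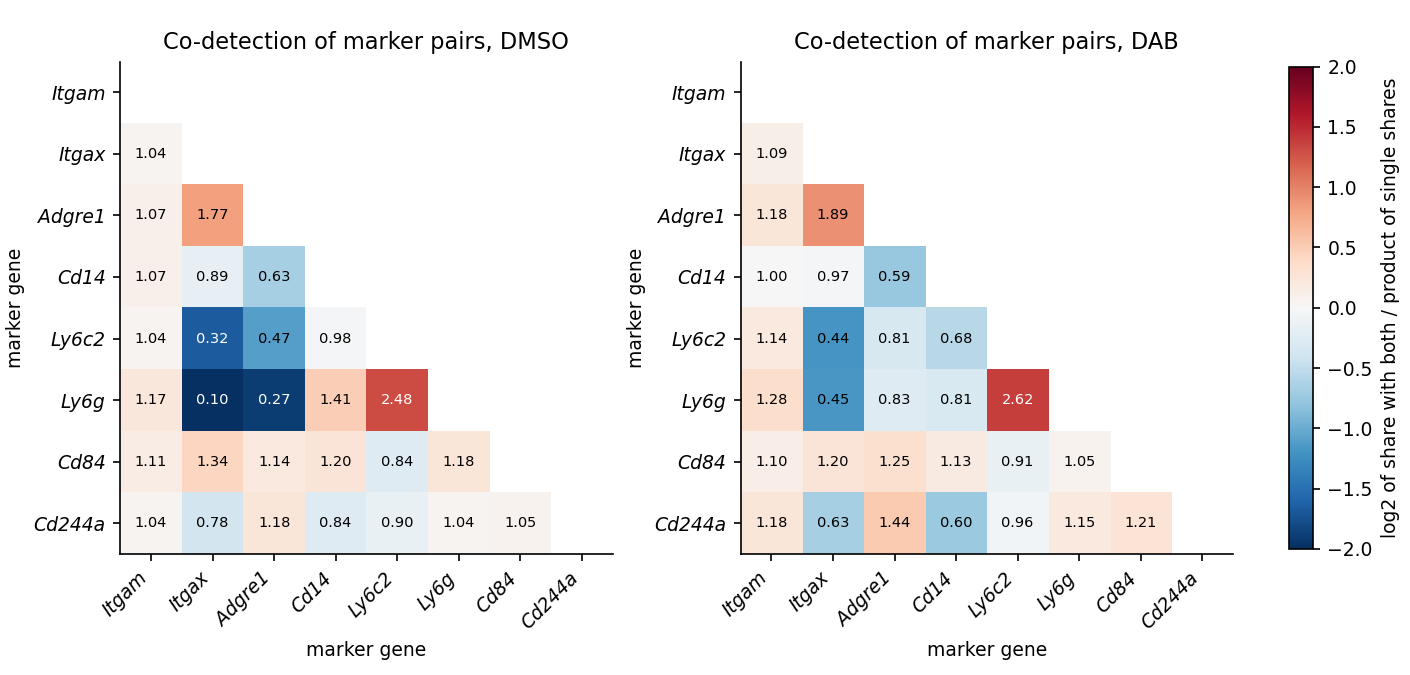
Ratio of the share of thinned cells with both markers to the product of the single shares for the 28 pairs (numbers, rounded) in DMSO (left) and DAB (right), colored by its log2. The Ly6c2 and Ly6g pair is the reddest in both (2.48 and 2.62), and the blue cells of Ly6g with Itgax and Adgre1 are paler in DAB.

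Cd84 was paired with Itgam slightly more often than independence gives. Both were found in 9.48% of DMSO cells (8.87% to 10.1%), a ratio of 1.11 (1.04 to 1.18), and in 7.27% of DAB cells (6.77% to 7.79%), a ratio of 1.10 (1.03 to 1.18). Of cells with Itgam, 21.2% in DMSO and 14.8% in DAB also held Cd84. At full depth 61.6% and 56.5% of Itgam cells did. Cd84 with Ly6g had ratios of 1.18 (1.04 to 1.32) and 1.05 (0.859 to 1.26), and Cd84 with Ly6c2 0.838 (0.753 to 0.929) and 0.905 (0.817 to 0.999). Cd84 with Cd244a, the SLAM pair, had thinned intervals that held 1 in both libraries (0.869 to 1.26 and 0.949 to 1.51), on 114 and 74 cells with both. At full depth that pair was above 1, at 1.22 (1.16 to 1.27) and 1.39 (1.33 to 1.46). Cd84 with Ly6c2 turned to 1.06 (1.02 to 1.09) and 1.16 (1.12 to 1.19) at full depth. Cd84 with Ly6g was then at 0.963 (0.910 to 1.02) and 1.17 (1.11 to 1.25). The part of unequal depth in these full-depth ratios was not tested, and the thinned directions of these pairs are not read as firm.

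The pairing of Cd14 depended on thinning. After thinning, with Ly6g its ratio was 1.41 (1.25 to 1.58) in DMSO and 0.811 (0.683 to 0.957) in DAB, and with Ly6c2 0.979 (0.879 to 1.09) and 0.682 (0.623 to 0.745). At full depth Cd14 with Ly6g was at 1.09 (1.02 to 1.16) in DMSO and 1.06 (0.990 to 1.13) in DAB, with intervals that overlapped, and Cd14 with Ly6c2 at 1.08 and 0.995, so no order between the libraries is read for the pair with Ly6g. Cells with Ly6g held Cd14 in 22.5% of cases in DMSO and 18.0% in DAB. Adgre1 and Cd14 had thinned ratios of 0.630 (0.508 to 0.771) and 0.590 (0.505 to 0.684), but at full depth the DMSO ratio was above 1, at 1.13 (1.08 to 1.19), and the DAB ratio 0.908 (0.869 to 0.947). Itgax and Adgre1 went together over all cells in both, at 1.77 (1.49 to 2.09) and 1.89 (1.63 to 2.20), and at 1.81 and 1.69 at full depth. Within clusters the thinned ratios of this pair were nearer to 1, at 1.08 in DMSO and 1.28 in DAB. After thinning a cell held on average 1.45 of the 8 markers in DMSO and 1.47 in DAB, and at full depth 3.31 and 3.38.

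Across clusters the levels of the markers, as log2(CPM + 1) over 44 points (22 clusters in each library), grouped them in a similar way. Pearson's r was 0.72 for Ly6c2 and Ly6g, 0.65 for Cd14 and Cd84, 0.61 for Adgre1 and Itgax and 0.61 for Cd84 and Itgam, and -0.48 for Itgax and Ly6c2. The points share libraries and clustering and r is a description. Among 9240 genes the most alike to Ly6g were Ceacam10 (0.91), Retnlg (0.88) and Cd177 (0.87), and to Ly6c2 Padi4 (0.93), Lcn2 (0.91) and Cd177 (0.89). Those most like Itgam were Lcp2 (0.92), Etv5 (0.92) and Nfam1 (0.91), like Itgax Fblim1 (0.86), Lpl (0.85) and Mmp12 (0.84), and like Adgre1 Fcrls (0.83), Piwil2 (0.78) and Ccdc80 (0.78). For Cd14 they were Slc11a1 (0.93), Slc6a12 (0.91) and Inhba (0.91), for Cd84 Lamp2 (0.86), Mitf (0.83) and Slc36a4 (0.83), and for Cd244a Coro2a (0.80), Esr1 (0.80) and Rassf4 (0.78).

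Genes that work beside the markers were read from lists of 48 genes, of which 47 passed the minimum of 20 UMIs. In DAB 11 were higher and 12 lower, with a median log2 ratio of 0.13, where 13.9% of all genes measured were higher and 16.3% lower. The single lists are small, and their counts are to be read against those shares. Of the 7 integrin partners 4 were higher and none lower (median 0.57), although Itgb2, the beta chain shared by CD11b and CD11c, had 475 CPM in DMSO and 533 CPM in DAB (0.17). Tln1, the talin that activates integrins, rose from 237 to 371 CPM (0.65). Of the 6 other Ly6 genes 4 were higher and 1 lower (median 0.92). Ly6a, which encodes Sca-1, rose from 91.1 to 199 CPM (1.13, 1.09 to 1.16), while Ly6i fell from 43.0 to 23.5 CPM (-0.87).

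Of the 8 measured SLAM family genes and adaptors 1 was higher and 3 were lower. Cd48, the ligand of 2B4, rose from 22.1 to 42.8 CPM (0.95, 0.88 to 1.03), whereas Slamf7 fell from 10.2 to 4.35 CPM (-1.22) and Slamf8 from 0.830 to 0.367 CPM (-1.18). Of 5 CD14 partners only the receptor gene Tlr2 was called, lower, at 66.1 and 46.5 CPM (-0.51), and Tlr4 was at 61.5 and 81.0 CPM (0.40). Both adhesion receptors related to F4/80 were measured, and Adgre5 (CD97) fell from 26.5 to 17.5 CPM (-0.60).

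Among 19 other myeloid surface markers 2 were higher and 6 lower. The chemokine receptor genes of monocytes fell, Ccr2 from 105 to 30.1 CPM (-1.80, -1.85 to -1.75) and Cx3cr1 from 7.07 to 2.33 CPM (-1.60). The scavenger receptor genes Cd36 and Olr1, which encodes the human PMN-MDSC marker LOX-1, fell from 16.5 to 1.3 CPM (-3.66) and from 50.0 to 24.3 CPM (-1.04). Cd274, which encodes PD-L1, fell from 143 to 67.8 CPM (-1.08) and Csf3r from 62.0 to 30.4 CPM (-1.03). The higher ones were Fcgr1, the high-affinity IgG receptor, at 12.5 and 25.5 CPM (1.03), and Slc27a2, the fatty acid transporter FATP2, at 0.404 and 7.23 CPM (4.16, 3.69 to 4.67).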

How the data were processed

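Per the labels, MDSC were grown from mouse bone marrow and profiled with the 10x Genomics 5′ v2 kit. The deposited values are raw UMI counts, not normalized, which the authors produced by aligning reads to mm10 using Cell Ranger 7.0.0. Counts of near-identical copies depend on that alignment. Every deposited barcode held at least 500 UMIs.

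Barcodes over 10% mitochondrial UMIs were left out (55 DMSO, 89 DAB), and a limit of 4 median absolute deviations above the median removed none. Doublets were scored against simulated ones and removed at a rate that grew with the number of barcodes (777 DMSO, 1082 DAB). Pearson residuals of 3000 genes without the 8 markers were reduced to 40 components, aligned by mutual nearest neighbors and clustered with Leiden at resolution 0.9. A cluster was named when at least 3 markers and most of its list were raised and its own markers led over those of other lists, with S100a8 or Csf3r also raised for granulocyte names. Shares depend on depth, so each cell was thinned once to 1500 UMIs. Genes needed 20 UMIs in all. Alternatives were other filters, scalings, weightings, thinning depths and clusterings. Intervals were exact for sums (Poisson), shares (binomial) and ratios of levels (conditional binomial). For pair ratios the binomial interval of the joint share was divided by the product of the single shares, whose own counting error was left out. Interval code was tested on simulated data. Positions came from GENCODE M21. Python 3.11.15, numpy 2.4.6, scipy 1.17.1, leidenalg 0.10.2 and Biopython 1.88 were used.

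Besides the 8 markers, named genes were the related genes with a log2 ratio of at least 1, the 3 genes most like each marker, H2-Aa, S100a8 and Ly6c1; other genes named by their list or as leading genes were chosen after their values were seen. The markers and lists were chosen with earlier results of these data known.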

Additional observations from a re-analysis of the deposited data

How the results depend on the processing

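Over all cells, log2 ratios stayed within their counting interval after dropping the quality filter, keeping doublets or scaling by the median of ratios. As a mean over cells they were 0.28 for Itgam, -0.38 for Itgax, 0.63 for Ly6c2, -0.93 for Ly6g, -0.51 for Cd84, -0.71 for Cd244a and 0.98 for Cd14, so that Itgax came under 0.5 in size and Ly6g, Cd244a and Cd14 over it, with no interval for such means. With cluster shares set equal they were 0.34 for Itgam, -0.97 for Itgax, 0.25 for Adgre1, 1.0 for Ly6c2, -0.27 for Ly6g, -0.70 for Cd84 and -0.09 for Cd14. In 2 alternatives chosen after seeing the data, Ly6c2 was at 0.71 and Ly6g at -0.70 without cells of 100 or more UMIs of the gene, and Ly6g was at -0.82 without clusters I and R. The cause of these shifts was not tested.

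The difference in thinned shares, DAB minus DMSO in percentage points, was at 3000 UMIs -3.40 for Itgax, 3.34 for Adgre1, -7.70 for Ly6g, -8.39 for Cd84, -4.49 for Cd244a, 3.38 for Cd14 and -5.05 for cells with both Ly6g and Ly6c2. Without thinning it was 2.40 for Itgam, 4.66 for Adgre1, -4.35 for Cd244a, 7.56 for Cd14 and -3.81 for both genes, and Itgax reversed to 1.39. At a log2 ratio of 1 instead of 0.5, 3 related genes were higher and 8 lower, against 11 and 12. With Spearman's in place of Pearson's correlation 11 of the 24 most alike genes were shared. Ratios within classes moved beyond their counting interval in 75 comparisons with other settings and stayed within it in 141, and no called one changed sign. No paired analysis was possible because each condition was 1 library. At full depth, where unequal depth of cells lifts ratios, several pair ratios crossed 1, as given with the pairs. Low levels, such as Ly6g in monocyte classes or Itgax in granulocytes, rest on few UMIs.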
